A study of Drosophila melanogaster with 6 samples.

Results

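The c-Jun N-terminal kinase (JNK) pathway and its AP-1 transcription factor were followed as 10 genes, egr, msn, slpr, Tak1, hep, bsk, puc, kay, Jra and Gadd45, in enteroblasts (EBs) of the adult Drosophila midgut. The genes were taken by their symbols from a table of 17321 genes, each by the transcript with the highest mean over all libraries, and all 10 were found. EBs are the progeny of the intestinal stem cells that, in the account of the study, go on to become enterocytes or enteroendocrine cells. Sox21a encodes a transcription factor of the SOX family. RNA-seq compared EBs of homozygous Sox21a mutant flies with EBs of control flies, with 3 libraries of each group. The mutant alleles were made with CRISPR/Cas9 and carry small frameshift deletions. The control is Sox21a/+ in the methods of the study, whereas the sample labels call it wild type. Both groups were females, 16 to 18 days after eclosion, kept at 25 °C, and both carried Su(H)GBE-Gal4, which is driven by Notch signalling in EBs, together with UAS-CD8::GFP. Each library came from the pooled anterior midguts of many flies, from which GFP-positive cells were sorted and their mRNA was linearly amplified.

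JNK signalling is a kinase cascade that answers to stress, wounding and cytokines of the tumour necrosis factor (TNF) family. In flies, the TNF ligand Eiger signals through receptors and adaptor proteins to a Ste20-type kinase and to MAP kinase kinase kinases, which act on the JNK kinase Hemipterous and through it on the JNK Basket. Basket phosphorylates AP-1, a dimer of Kayak (Fos) and Jra (Jun), and AP-1 in turn drives transcription of puckered (puc), whose phosphatase switches Basket off again. In the midgut, the pathway is known for its part in stress responses, stem cell division and the loss of damaged enterocytes. Its activity is set by phosphorylation, which RNA levels do not measure.

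Of the 10 genes, 2 were called as different between the groups, and neither call held in every fit that left out 1 library. Gadd45, a stress-response gene, was higher in Sox21a EBs, and puc, the phosphatase gene that feeds back on JNK, was lower. The ligand, the kinases and both AP-1 subunits did not pass the test. Values are normalized reads of the transcript, and tests were made with limma on log2(value + 1), with Benjamini-Hochberg adjusted p-values over the 11400 transcripts whose mean reached 10 and a threshold of 0.05. By the same test 34.4% of the 9571 genes tested were called, 24.2% as higher and 10.2% as lower in Sox21a EBs, so 2 of 10 does not set these genes apart from the rest. The median log2 fold change of the 10 genes was -0.18, and that of all genes tested was 0.24.

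Each value is a whole multiple of 1 step per library, and the values of a library summed to 37286049 to 45955837 steps. Values of all transcripts leaned towards Sox21a EBs, with a median log2 fold change of 0.21 that became 0.01 when libraries were rescaled by median ratios over transcripts whose mean reached 100. The rescaled libraries gave 32.3% of genes called, 17.2% higher and 15.2% lower. In genes, that was 1639 higher and 1449 lower, against 2316 higher and 977 lower as deposited. Sox21a RNA itself did not separate the groups, with values of 14474, 14697 and 19025 in Sox21a EBs and 14123, 17337 and 16781 in control EBs. The progenitor gene esg had 11946 to 15760 in Sox21a EBs and 35410 to 46683 in control EBs, far from the detection limit in every library. Across marker lists, 4 of 8 progenitor genes and 7 of 10 enterocyte genes were lower in Sox21a EBs. The sums given for a list cover all its genes, also those under the filter on low values and so not tested. Summed enterocyte markers ran over 24060 to 31173 in Sox21a EBs and 57639 to 97415 in control EBs. Of 8 enteroendocrine genes tested, 3 were higher and 1 was lower, with summed levels of 3220 to 7619 in Sox21a EBs and 1064 to 1386 in control EBs. All 3 haemocyte genes tested were lower, with He at the detection limit in all libraries and sums of 236 to 293 in Sox21a EBs and 594 to 736 in control EBs. For trachea, 2 of 4 genes tested were higher, with dys at the limit in all libraries and sums of 1571 to 2321 in Sox21a EBs and 733 to 979 in control EBs. The trachea list holds btl, which the study also saw in some Sox21a EBs with a reporter, so it does not mark trachea alone. For visceral muscle, 1 of 3 genes tested was higher, with sums of 147 to 163 in Sox21a EBs and 61.0 to 109 in control EBs. The part of these cell types in the results was not tested, and in bulk RNA fewer cells of a type cannot be told apart from less RNA per cell. Control replicate 1 stood apart from its group, with a median absolute log2 difference of 0.371 and 0.357 from the other control libraries, which differed from each other by 0.214.

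**Figure D1:**
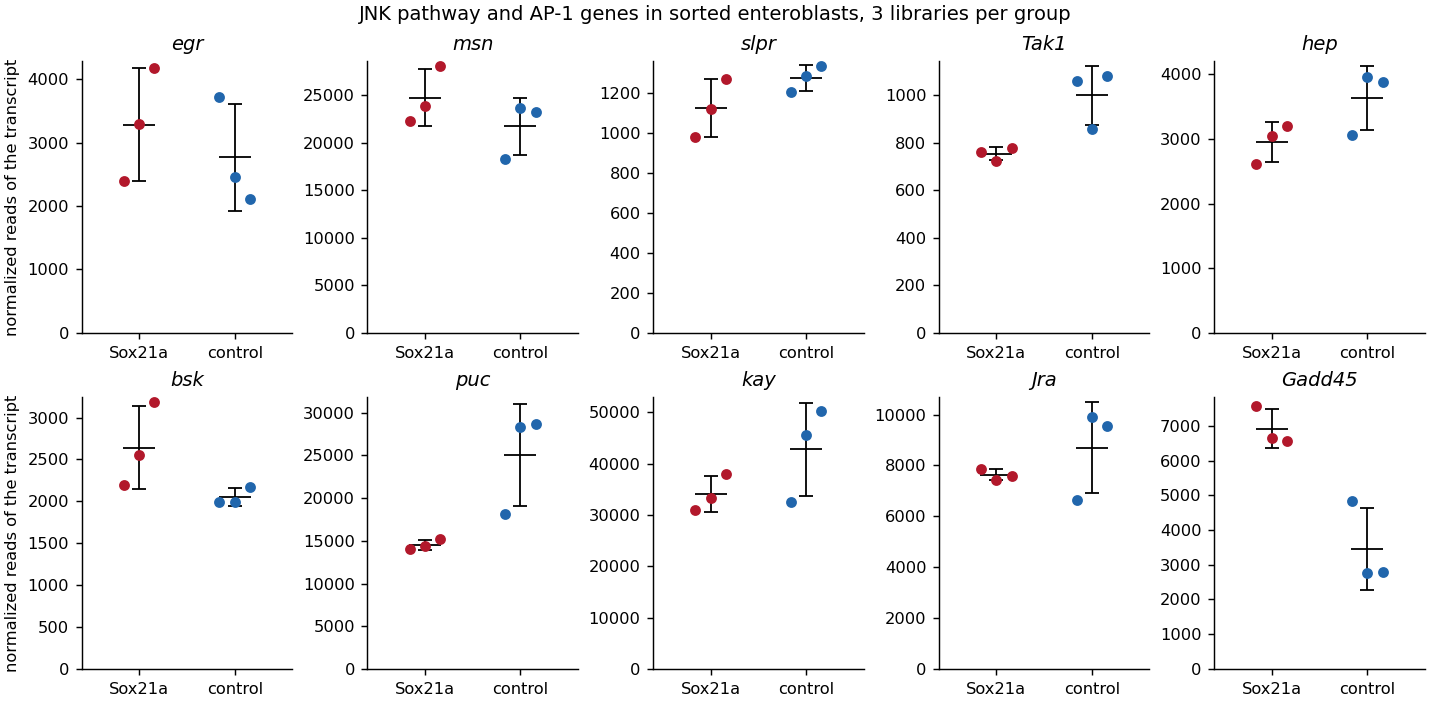
Normalized reads of each of the 10 genes in the Sox21a libraries (left, red) and control libraries (right, blue), on linear axes that start at 0. Points are replicates 1 to 3 from left to right within a group, and bars give the mean ± SD (n = 3). The groups do not overlap for Tak1, bsk, puc and Gadd45.

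All 10 genes were well expressed in EBs of both groups, as the plot of values by library shows, and every one passed the filter on low values. Their mean levels over all libraries were at percentiles 62.3 (Tak1) to 98.6 (kay) of the genes tested. The groups did not overlap for 4 of the 10, Gadd45 and bsk above the control values and puc and Tak1 below them. Among all genes tested, 51.0% had groups that did not overlap, so this count too was close to the background.

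The ligand gene egr (Eiger, FBgn0033483) lies on chromosome arm 2R at 10078366 to 10084210 of genome release 6. It had 2388, 3288 and 4172 normalized reads in Sox21a EBs and 3727, 2466 and 2116 in control EBs. The groups overlapped over most of their range, and control replicate 1 was the highest control library. The estimate for egr was a log2 fold change of 0.25 with a 95% interval of -0.42 to 0.92 (limma, adjusted p = 0.52), and the interval holds changes in either direction.

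Of the upstream kinases, msn (misshapen, FBgn0010909, 3L 2554847 to 2586540), the Ste20-type kinase gene, had the highest level per kilobase of transcript. It had 22239, 23848 and 28065 normalized reads in Sox21a EBs and 18223, 23657 and 23224 in control EBs, and the groups overlapped. Its log2 fold change was 0.19 with a 95% interval of -0.23 to 0.61 (limma, adjusted p = 0.43), and it was -0.0037 with rescaled libraries, so no direction can be given for msn.

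The MAP kinase kinase kinase gene slpr (slipper, FBgn0030018) lies at X 8170229 to 8177185. It had 981, 1122 and 1269 normalized reads in Sox21a EBs and 1206, 1286 and 1336 in control EBs. The Sox21a libraries reached lower values, but the groups overlapped. For slpr the log2 fold change was -0.19 with a 95% interval of -0.56 to 0.18 (limma, adjusted p = 0.38). An exon of slpr overlaps CG2278 on the same strand, a gene with a mean of 302, so that reads in the shared stretch are uncertain for both.

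Tak1 (FBgn0026323, X 20515908 to 20524928), the other MAP kinase kinase kinase gene of the set, had 760, 725 and 779 normalized reads in Sox21a EBs and 1060, 859 and 1083 in control EBs. The groups did not overlap, with the Sox21a libraries all on the lower side. The mean was 755 ± 27.4 in Sox21a EBs and 1001 ± 124 in control EBs (SD, n = 3 each). This gave a log2 fold change of -0.40 with a 95% interval of -0.77 to -0.03, which missed the threshold over all transcripts (limma, adjusted p = 0.087, and 0.072 to 0.24 without 1 library). With rescaled libraries it was -0.59 and passed (limma, adjusted p = 0.014), so that the call for Tak1 turns on how the libraries are scaled.

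The JNK kinase gene hep (hemipterous, FBgn0010303, X 13079205 to 13090434) was listed with 5 transcripts, of which RE was the highest. hep-RE had 2611, 3042 and 3202 normalized reads in Sox21a EBs and 3063, 3957 and 3882 in control EBs. The lowest control library, replicate 1, fell within the Sox21a range. Its log2 fold change was -0.30 with a 95% interval of -0.70 to 0.11 (limma, adjusted p = 0.22). The other transcripts had log2 fold changes of -0.35 (RA), -0.28 (RC), -0.38 (RD) and -0.38 (RF), with adjusted p from 0.10 to 0.25 in limma. The transcripts share exons, so these are not separate measurements. hep passed the threshold with rescaled libraries and the replicate number as a block together, at a log2 fold change of -0.49 (limma, adjusted p = 0.048).

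The JNK gene bsk (basket, FBgn0000229, 2L 10247502 to 10250501) had 2193, 2552 and 3181 normalized reads in Sox21a EBs and 1989, 1994 and 2175 in control EBs. All Sox21a values were above all control values, but the gap between the groups was small beside the spread of the Sox21a libraries. The mean was 2642 ± 500 in Sox21a EBs and 2053 ± 106 in control EBs (SD, n = 3 each). For bsk the log2 fold change was 0.35 with a 95% interval of -0.07 to 0.77 (limma, adjusted p = 0.17), and 0.15 with rescaled libraries.

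The phosphatase gene puc (puckered, FBgn0243512, 3R 8105332 to 8122294) fell in Sox21a EBs. It had 14006, 14385 and 15183 normalized reads in Sox21a EBs and 18175, 28279 and 28633 in control EBs. The Sox21a libraries were within a narrow range, and all were below the lowest control library, which was replicate 1. The mean was 14525 ± 601 in Sox21a EBs and 25029 ± 5939 in control EBs (SD, n = 3 each). The log2 fold change was -0.76 (SE 0.21, 95% interval -1.25 to -0.26), a level of 0.592 times the control on the log2(value + 1) scale (limma, adjusted p = 0.030). Over all genes tested, 9.20% had a lower log2 fold change. With rescaled libraries it was -0.95 (limma, adjusted p = 0.020).

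The direction for puc held in each fit that left out 1 library, with log2 fold changes of -0.97 to -0.64, but the call did not. Without control replicate 1 the adjusted p was 0.0031, and without any other single library it was 0.068 to 0.095 (limma). Without a filter on low values it was 0.055. The long non-coding RNA gene CR44331 overlaps puc on the opposite strand without sharing an exon, and had a mean of 129.

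Of the AP-1 subunits, kay (kayak, Fos, FBgn0001297, 3R 29765995 to 29794113) had 30991, 33362 and 38003 normalized reads in Sox21a EBs and 32584, 45558 and 50178 in control EBs. The control libraries other than replicate 1 were above all Sox21a libraries, whereas replicate 1 fell within the Sox21a range. For kay the log2 fold change was -0.31 with a 95% interval of -0.79 to 0.17 (limma, adjusted p = 0.27). Without control replicate 1 it was -0.49 and passed the threshold (limma, adjusted p = 0.045). The gene fig lies within kay on the opposite strand, with no shared exon and a mean of 54.8.

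The Jun gene Jra (Jun-related antigen, FBgn0001291) lies 12269 bases from egr on the same chromosome arm, at 2R 10096480 to 10098556. It had 7872, 7433 and 7594 normalized reads in Sox21a EBs and 6631, 9908 and 9549 in control EBs. The control libraries were on either side of the narrow Sox21a range. Its log2 fold change was -0.17 with a 95% interval of -0.62 to 0.29 (limma, adjusted p = 0.53). An exon of Jra overlaps RpLP0-like on the opposite strand, a gene with a mean of 1488, and use of strand in the counting is not described in the sources used here.

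Gadd45 (FBgn0033153, 2R 7249161 to 7250655) belongs to a family of stress-response genes whose mammalian proteins bind and activate a MAP kinase kinase kinase upstream of JNK. It rose in Sox21a EBs, where it had 7560, 6647 and 6555 normalized reads, against 4824, 2761 and 2787 in control EBs. All Sox21a libraries were above all control libraries, and control replicate 1 was the highest control library. The mean was 6921 ± 556 in Sox21a EBs and 3457 ± 1184 in control EBs (SD, n = 3 each). The log2 fold change was 1.05 (SE 0.24, 95% interval 0.48 to 1.62), or 2.07-fold (limma, adjusted p = 0.016). Over all genes tested, 87.2% had a lower log2 fold change. With rescaled libraries it was 0.86 (limma, adjusted p = 0.033).

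Leaving out 1 library gave log2 fold changes of 0.91 to 1.32 for Gadd45. It missed the threshold without Sox21a replicate 1, control replicate 2 or control replicate 3, at adjusted p of 0.058, 0.053 and 0.052, and passed without each of the other 3 libraries, at 0.0014 without control replicate 1 (limma).

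**Figure D2:**
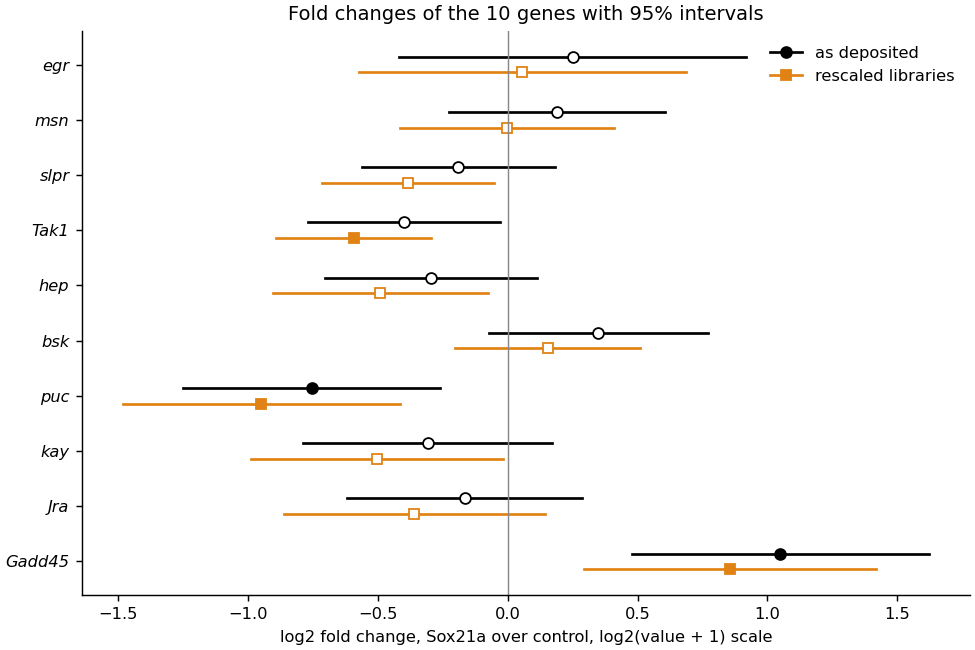
Log2 fold change (Sox21a over control) of the 10 genes with its 95% interval from limma, for the values as deposited (black circles) and with rescaled libraries (orange squares). Filled symbols have an adjusted p under 0.05, which are puc and Gadd45 as deposited and Tak1, puc and Gadd45 with rescaled libraries.

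Rescaling lowered all 10 log2 fold changes by nearly the same amount, as the plot of fold changes shows, and the count called became 3, with Gadd45 higher and puc and Tak1 lower. The median log2 fold change of the 10 genes was then -0.37, and that of all genes tested was 0.05. Each library was rescaled by a single factor for all its genes, so the order of the genes by fold change was bound to stay nearly the same. Between puc at the low end and Gadd45 at the high end, the other 8 genes had log2 fold changes of -0.40 to 0.35, as the histogram of all genes shows.

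**Figure D3:**
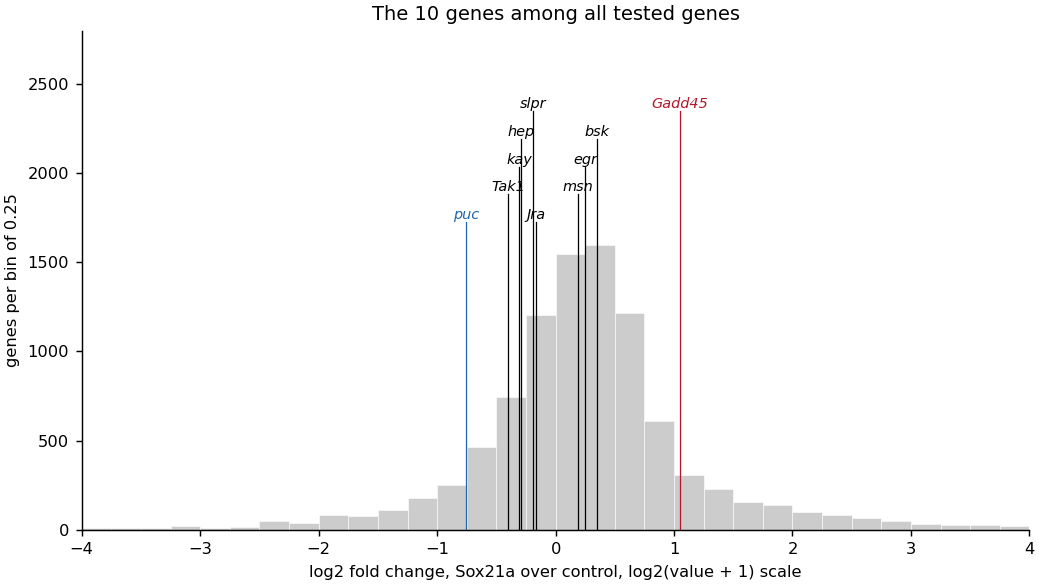
Distribution of log2 fold changes (Sox21a over control) of the 9571 genes tested, in bins of 0.25, with the 10 genes marked as lines. Red marks the gene called higher (Gadd45), blue the gene called lower (puc) and black the genes not called, which lie from -0.40 to 0.35. Genes beyond -4 or 4 are outside the axis.

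Reads were divided by the length of the transcript to set genes side by side. The mRNA was linearly amplified, and how evenly reads covered each transcript was not tested, so the order between genes is uncertain. On that scale kay led in both groups, with 9517 ± 995 reads per kilobase in Sox21a EBs and 11931 ± 2544 in control EBs (SD, n = 3 each). In Sox21a EBs it was followed by Jra (5005), puc (4976), Gadd45 (4629), msn (3851), bsk (1721), egr (1515), hep (519), Tak1 (223) and slpr (219). Of these neighbours, Jra and puc, puc and Gadd45, bsk and egr, and Tak1 and slpr overlapped in range. In control EBs the order was kay, puc (8575), Jra (5703), msn (3381), Gadd45 (2313), bsk (1337), egr (1279), hep (639), Tak1 (295) and slpr (248). There kay and puc, puc and Jra, msn and Gadd45, bsk and egr, and Tak1 and slpr overlapped. The AP-1 genes and puc thus had more reads per kilobase than the MAP kinase kinase kinase genes Tak1 and slpr in every library of both groups.

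Ratios between 2 genes of the same library do not depend on the scaling of the libraries. The 4 taken were chosen after the values had been seen, and the smallest p that 3 against 3 libraries allow is 0.10. The ratio of puc to its substrate bsk, per kilobase, was 3.36, 2.96 and 2.51 in Sox21a EBs and 4.80, 7.46 and 6.92 in control EBs. All puc values were lower and all bsk values higher in Sox21a EBs than in control EBs. The groups were thus bound not to overlap in this ratio, which adds no evidence to that of the 2 genes. The ratio in Sox21a EBs was 0.465 times that in control EBs (exact permutation test, two-sided p = 0.10, 0.20 adjusted over the 4 ratios). The balance of the 2 JNK kinase genes, Mkk4 to hep, was 2.94, 2.74 and 2.89 in Sox21a EBs and 1.84, 1.42 and 1.54 in control EBs, 1.80-fold higher with no overlap (exact permutation test, two-sided p = 0.10, 0.20 adjusted).

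The ratio of the AP-1 subunits, kay to Jra, was 1.67, 1.91 and 2.13 in Sox21a EBs and 2.09, 1.96 and 2.24 in control EBs. It overlapped between the groups (exact permutation test, two-sided p = 0.30, 0.30 adjusted). Gadd45 to bsk was 3.54, 2.67 and 2.12 in Sox21a EBs and 2.49, 1.42 and 1.32 in control EBs, with control replicate 1 inside the Sox21a range (exact permutation test, two-sided p = 0.20, 0.27 adjusted). The plot of ratios within libraries shows this difference between the pairs.

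**Figure D4:**
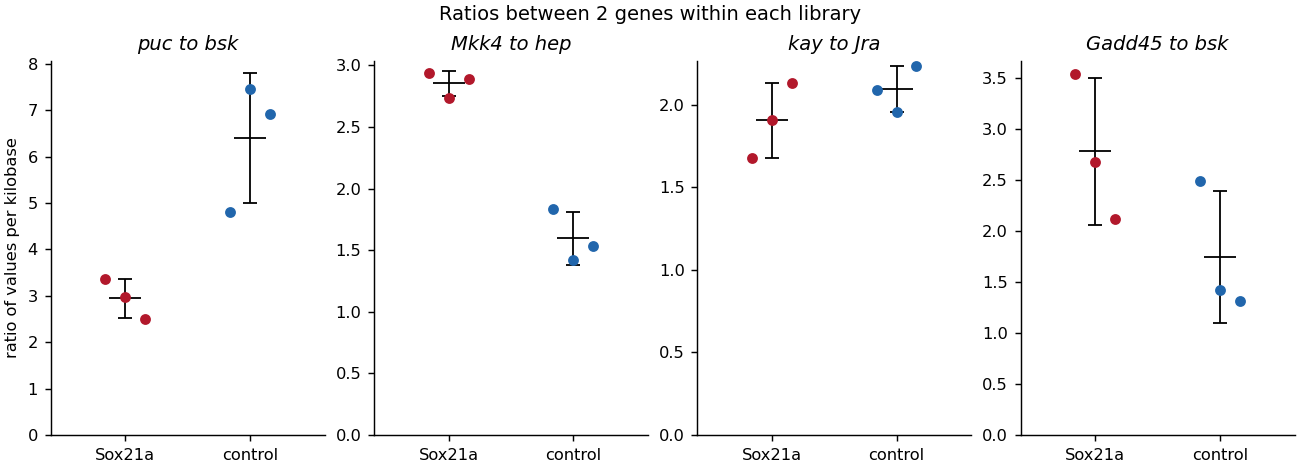
Ratio of the values per kilobase of 2 genes in the same library, for puc to bsk, Mkk4 to hep, kay to Jra and Gadd45 to bsk, on linear axes from 0. Points are Sox21a libraries (left, red) and control libraries (right, blue), and bars give the mean ± SD (n = 3). Among these 4, chosen after the values had been seen, puc to bsk and Mkk4 to hep separate the groups without overlap. Of all genes tested, 51.0% did so on their own, puc, bsk and Mkk4 among them.

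Other genes of the cascade were taken from a list of 26 components of several kinds, scaffold genes among them, and all were tested. In Sox21a EBs, 7 were higher (Traf4, wnd, grnd, Src64B, POSH, Pk92B and Mkk4), 2 were lower (syd and Tab2) and 17 were not called, with a median log2 fold change of 0.30. Among the 9571 genes tested 34.4% were called, 24.2% higher and 10.2% lower, so that 9 of 26 is at the background. With rescaled libraries 5 were higher and 4 lower, since grnd and Mkk4 were no longer called and Traf6 and Rac2 were called as lower. The higher genes encode an adaptor of TNF receptors (Traf4), an Eiger receptor (grnd), a Src kinase (Src64B), a scaffold protein (POSH), MAP kinase kinase kinases (wnd and Pk92B) and the JNK kinase Mkk4.

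Traf4 had 8412, 9670 and 7342 normalized reads in Sox21a EBs and 463, 1953 and 1453 in control EBs. The groups were far apart, with a log2 fold change of 2.94 ± 0.50 (SE, limma, adjusted p = 0.0044). Control replicate 1 was the lowest, and without it the log2 fold change was 2.32 (limma, adjusted p = 0.00067). The MAP kinase kinase kinase gene wnd (wallenda) had 806, 767 and 534 in Sox21a EBs and 93.1, 108 and 130 in control EBs, a log2 fold change of 2.65 ± 0.22 (SE, limma, adjusted p = 0.00022). Each stayed called without any single library.

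Src64B had 7717, 6523 and 5977 normalized reads in Sox21a EBs and 2350, 3450 and 3720 in control EBs, with a log2 fold change of 1.11 (limma, adjusted p = 0.0085). It was not called with rescaled libraries and the replicate block together, at 0.91 (limma, adjusted p = 0.066). The Eiger receptor gene grnd (grindelwald, in the table as CG10176) had low values of 33.0, 33.0 and 20.7 in Sox21a EBs and 14.5, 5.6 and 16.5 in control EBs. Its log2 fold change of 1.27 (limma, adjusted p = 0.042) was not called with the replicate number as a block (adjusted p = 0.071), with rescaled libraries (adjusted p = 0.074), without any of the 3 Sox21a libraries (0.055 to 0.12), without control replicate 2 (0.064), without a filter on low values (0.11), or with its transcripts summed (0.062).

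The scaffold gene syd (sunday driver), which links JNK signalling to axonal transport, was lower, with 697, 704 and 814 normalized reads in Sox21a EBs and 1259, 1468 and 1764 in control EBs. All Sox21a libraries were below all control libraries, at a log2 fold change of -1.01 (limma, adjusted p = 0.0053). Tab2, which encodes the partner that Tak1 binds, was lower as well, at -0.93 (limma, adjusted p = 0.0097). Mkk4 was called at a log2 fold change of 0.55 (limma, adjusted p = 0.026) but not with rescaled libraries (adjusted p = 0.066), and without 1 library it stayed called for control replicate 1 alone (0.055 to 0.098 for the others). The kinase gene Pk92B, at a log2 fold change of 0.67 (limma, adjusted p = 0.017), was not called without Sox21a replicate 2 or 3 or control replicate 2 or 3 (0.052 to 0.060). POSH, at a log2 fold change of 0.93 (limma, adjusted p = 0.012), stayed called without any single library (adjusted p up to 0.049) and with rescaled libraries (0.029). With the replicate number as a block, ben (adjusted p = 0.038, against 0.051 without it) and Rac2 (0.046, against 0.058 without it) were also called (limma).

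Among 5 transcription factor genes that act beside AP-1 or answer to stress, 2 were lower in Sox21a EBs, none was higher, and 3 were not called (Ets21C, aop and Atf-2), with a median log2 fold change of -0.13. At an unadjusted p under 0.05 the same 2 genes passed in limma. Of all genes tested 34.4% were called and 10.2% were lower, and 5 genes are too few to read 2 of them against these shares. Atf3, which encodes a bZIP protein that can pair with Jra, had 10023, 11313 and 14331 normalized reads in Sox21a EBs and 25133, 29458 and 30541 in control EBs. The groups did not overlap, and the log2 fold change was -1.27 ± 0.19 (SE, limma, adjusted p = 0.0025). The forkhead factor gene foxo had 1867, 2698 and 2669 in Sox21a EBs and 4126, 5917 and 5048 in control EBs, again with no overlap (log2 fold change -1.07, limma, adjusted p = 0.0097). Both stayed called in every fit that left out a library and with rescaled libraries.

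**Figure D5:**
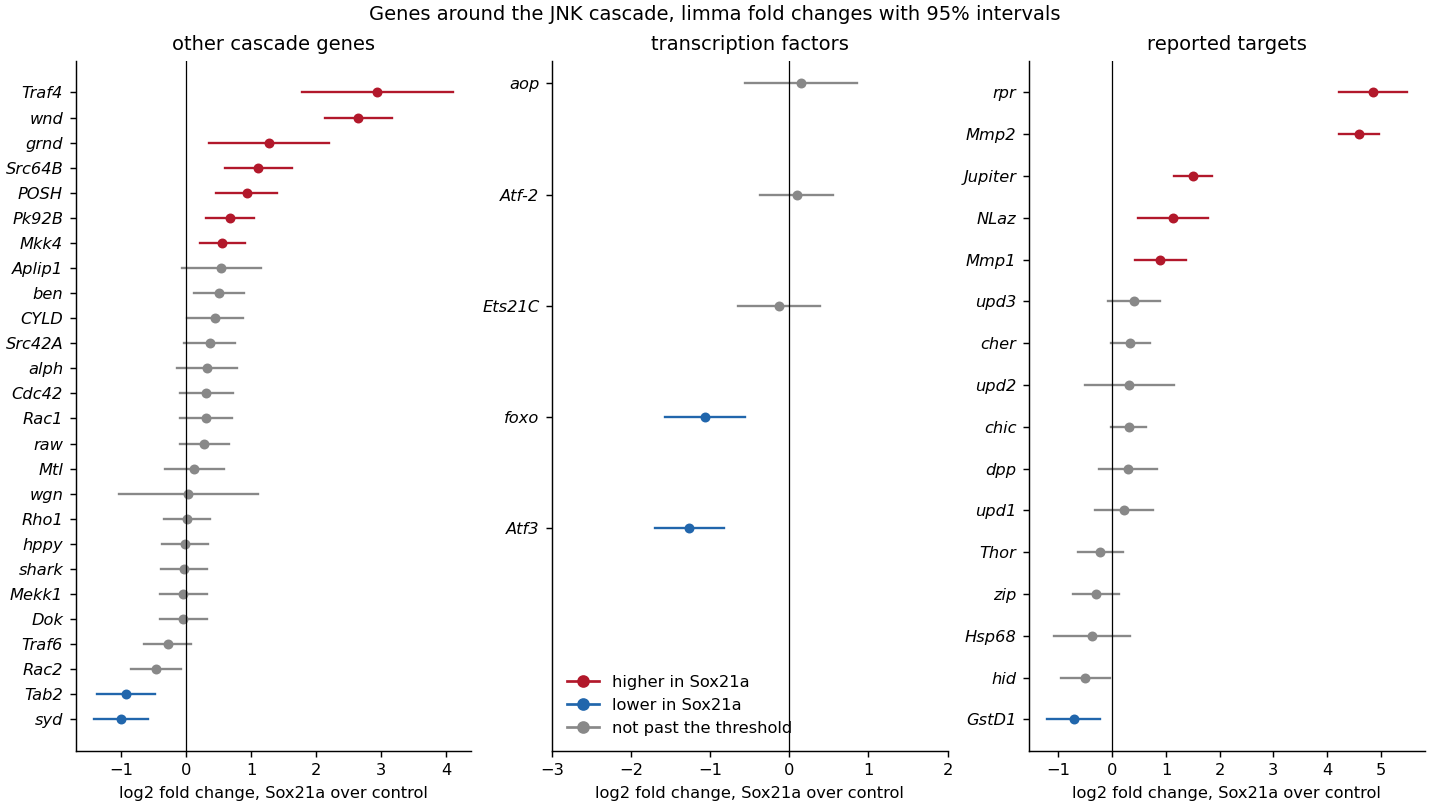
Log2 fold change (Sox21a over control) with its 95% interval from limma for other cascade genes (26 genes), transcription factors (5 genes) and reported JNK target genes (16 tested genes), each panel sorted by fold change. Red marks an adjusted p under 0.05 and a higher value in Sox21a EBs, blue the same with a lower value, and grey the rest.

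Of 18 genes reported in flies to answer to JNK, puc apart, 16 were tested, and Ilp8 and scaf were under the filter on low values. In Sox21a EBs, 5 were higher (rpr, Mmp2, Jupiter, NLaz and Mmp1), 1 was lower (GstD1) and 10 were not called, with a median log2 fold change of 0.31. With 34.4% of all genes tested called, 24.2% higher and 10.2% lower, 6 of 16 is near the background. With rescaled libraries 4 were higher and 1 was lower, since NLaz was no longer called. The plot of fold changes by list shows that rpr and Mmp2 lie apart from the other target genes.

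Mmp2, which encodes a matrix metalloproteinase, had 3195, 2917 and 3595 normalized reads in Sox21a EBs and 128, 146 and 123 in control EBs. The groups were far apart, with a log2 fold change of 4.60 ± 0.16 (SE, limma, adjusted p = 1.1e-05). Mmp1, the other matrix metalloproteinase gene, was higher by a log2 fold change of 0.90 (limma, adjusted p = 0.014), and was not called without Sox21a replicate 2 (adjusted p = 0.052). The cell death gene rpr (reaper) had 184, 96.0 and 96.4 in Sox21a EBs, whereas all control libraries were at the detection limit. That limit is 3 counts above the smallest value of the table in each library. The mean in Sox21a EBs was 23.6 times the mean limit of the control libraries, and 18.1 to 26.4 times it when 1 Sox21a library was left out. Since the control values were at or under the limit, these are lower bounds on the fold change.

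Jupiter, which encodes a microtubule-associated protein, had 9932, 9443 and 11502 normalized reads in Sox21a EBs and 3485, 3515 and 3847 in control EBs. The values within a group were close together, and the log2 fold change was 1.51 ± 0.15 (SE, limma, adjusted p = 0.00048). NLaz, which encodes a secreted lipocalin, had 1775, 1320 and 1105 in Sox21a EBs and 477, 883 and 579 in control EBs, a log2 fold change of 1.13 (limma, adjusted p = 0.020) that was not called with rescaled libraries (adjusted p = 0.067), without a filter on low values (0.053), or without Sox21a replicate 1 (0.067), Sox21a replicate 2 (0.052) or control replicate 3 (0.059). The glutathione S-transferase gene GstD1 was lower, at a log2 fold change of -0.71 (limma, adjusted p = 0.037), and stayed called when control replicate 3 was left out but not without any other single library (0.064 to 0.11) or without a filter on low values (0.065). The cytokine genes upd1, upd2 and upd3 had log2 fold changes of 0.22, 0.31 and 0.41 and were not called.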

How the data were processed

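EBs were sorted from anterior midguts by their GFP, and linearly amplified mRNA was sequenced as 3 biological replicates per group. The authors mapped paired reads with Bowtie2 to genome release 6, counted pairs in exons and divided by size factors. The deposited unit is a signal, normalized reads per transcript, in whole multiples of a step per library with a smallest value of 2 steps. A further deposited table of the authors' comparison (means, variances, fold changes, p-values) was not used. Groups and replicate numbers came from the labels.

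Log2(value + 1) of the 11400 of 19674 transcripts with a mean of at least 10 was fitted with limma 3.58.1 in R 4.3.3, without a trend, on all 6 libraries. Adjusted p-values cover all of them, and each gene is given by its highest transcript. The values are steps divided by size factors, none under 2 steps, and it is unknown if that is a floor or an added constant, so they were tested on a log scale and no count model was fitted. Intervals are 95% intervals of limma. A value at or under 5 steps, 3 above the smallest, was taken as the detection limit. Positions and lengths came from a later annotation of genome release 6, so gene models can differ from those used in the counting. The exact permutation tests used SciPy 1.17.1. The main fit was also run on simulated data with known fold changes, whose spread was set and not taken from these libraries. The sources do not say beyond "biological replicates" how separate the cultures of flies were, so p-values cover the spread between these libraries.

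Deviations from the group means correlated weakly, at 0.17, 0.13 and 0.12, for libraries with the same number, above every other pair (-0.18 to 0.05). Whether the replicate numbers pair the libraries is therefore uncertain. The main fit did not pair them, and the replicate number entered as a block only in alternative fits. Alternatives changed the pseudocount (0.1 or 10), the filter (none or 100), the scaling, the pairing, the variance trend, the transcript choice, the threshold and the libraries left out. All 10 genes were named with values, and of the other lists those called with at least 2-fold change, the rest having been singled out after their values were seen. The genes and lists were chosen with earlier results of these data known.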

Additional observations from a re-analysis of the deposited data

How the results depend on the processing

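The count of 2 called among the 10 genes was 1 without a filter on low values, 4 (1 higher, 3 lower) with rescaled libraries and the replicate block together, a fit added after seeing the data, 0 at an adjusted p under 0.01 and 1 with a 2-fold minimum, and it ran over 0 to 3 when 1 library was left out (limma). It was 0 without Sox21a replicate 1, control replicate 2 or control replicate 3, where 3, 3 and 2 genes had an unadjusted p under 0.05, and 3 genes had one with all libraries. Among the 10 genes and the listed genes called, the alternatives run turned no direction other than that of msn with rescaled libraries, at -0.0037 with and without the replicate block. Of all transcripts, 3986 were called, with 1905 at an adjusted p under 0.01, 2097 with a 2-fold minimum and 2444 (without Sox21a replicate 2) to 5060 (without control replicate 1) when 1 library was left out. The 9 other cascade genes called became 5 at 0.01 and 5 with a 2-fold minimum, and the 6 target genes called became 3 at 0.01 and 3 (without Sox21a replicate 2) to 6 without 1 library. The cause of these changes was not tested. With the replicate block, 4244 transcripts and 2 of the 10 genes were called, and among the listed genes it changed only the calls for ben, Rac2 and grnd. The edgeR and DESeq2 fits planned on recovered reads were not run. Every value is a whole number of steps, but none is under 2 steps, so the original counts of low transcripts are not known. The size of a step limits low values such as those of grnd, and the 10 genes were far above it.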
